A study of Mus musculus with 9 samples.

Results

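Collagen processing and cross-linking enzymes were followed as a group of 10 genes across control osteoblasts, SB216763-treated osteoblasts, and pulmonary endothelial cells (ECs). The members were named by symbol, namely Lox, Loxl1, Loxl2, Loxl3, Loxl4, Pcolce, Pcolce2, Bmp1, Plod2, and Serpinh1. All 10 were found among the 50686 genes of the deposited count table, and all 10 were among the 15531 genes that passed the filter on low counts. The osteoblasts were MC3T3-E1, a mouse calvarial preosteoblast line, either untreated (n = 3) or given 10 μM of the glycogen synthase kinase 3 inhibitor SB216763 for 14 days (n = 3). The ECs were untreated mouse pulmonary cells isolated by FACS (n = 3), and neither the age nor the strain of the mice is given. Both osteoblast groups came from 1 cell line, the time that the untreated cells spent in culture is not given, and nothing in the labels says that libraries of a group came from separate cultures or animals. The p-values therefore measure the spread between these libraries, which may be technical.

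Fibrillar collagens are made as procollagens whose prolines and lysines are hydroxylated in the endoplasmic reticulum before the chains fold into a triple helix. The helix is held by a collagen-specific chaperone, exported, trimmed of its propeptides outside the cell, and then joined into fibers by covalent cross-links that lysyl oxidases start by oxidizing lysine and hydroxylysine side chains. Osteoblasts rely on this route to lay down the type I collagen matrix that later mineralizes, and ECs use parts of it for basement membrane and vessel wall.

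Library depth was between 30990107 and 68946333 counts, and 3 counts, taken as the level below which a gene could not be read, corresponded to 0.0473 to 0.104 CPM (library-scaled counts, normalized by the trimmed mean of M values, TMM). All CPM values given here are on that scale. The summed CPM of 5 endothelial markers was 6000 to 6149 in ECs, against at most 2.71 in control and 2.55 in treated osteoblasts, where none of the 5 reached 1 CPM. The summed CPM of 5 osteoblast markers was 679 to 766 in control and 186 to 191 in treated cells, and 20.2 to 21.8 in ECs. Smooth muscle markers summed to 2910 to 3095 CPM in control, 206 to 225 in treated cells, and 95.2 to 102 in ECs, nearly all of it Acta2 in control cells, and the fibroblast and pericyte markers to 602 to 688, 1098 to 1125, and 24.5 to 24.8 CPM. In the latter sum Pdgfrb went from 254 to 746 CPM with SB216763 and Pdgfra and Lum also rose, whereas Cspg4 (33.2 to 3.14 CPM) and Dcn (264 to 211 CPM) fell. The osteoblast, smooth muscle, and fibroblast and pericyte sums moved with the treatment, and their part in the results was not tested. Leukocyte markers stayed under 2 CPM in osteoblasts and summed to 45.7 to 47.7 in ECs, mostly Cd68, with Cd3e at 0, and lung epithelial markers stayed under 0.3 CPM everywhere. In these bulk samples, fewer cells expressing a gene and less RNA per cell cannot be told apart.

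SB216763 lowered the transcripts of some steps of the route and raised others. Lox, Loxl4, and Pcolce2 fell by more than 4-fold, Serpinh1 and Plod2 fell by less, and Loxl1, Loxl3, and Bmp1 rose. In edgeR's quasi-likelihood test with a Benjamini-Hochberg adjusted p (FDR) under 0.01, 5 of the 10 members were lower, against 32% of all genes tested, and 3 were higher, against 32.9% of all genes. With a log2 fold change of 2 or more in either direction as well, 3 members were lower, against 5.84% of all genes, and 0 were higher, against 3.81%. The count of 0 was the same with DESeq2 and limma-voom, but among 10 genes it cannot be set apart from the 3.81%. At a log2 threshold of 1, 2 members, Loxl1 and Loxl3, were called higher, beside 1726 of all 15531 genes. With no fold threshold, an unadjusted p under 0.05 in edgeR's test added no member to the 3 called higher. It took those called lower from 5 to 6, by adding Pcolce. The matching counts of all genes were not taken. The median log2 fold change of the members was -0.30 beside 0.01 over all genes, and their range ran from -7.98 to 1.12. Control and treated libraries did not overlap for any of the 10 members, as for 73.2% of all genes tested. Scaling by library size alone moved the median log2 fold change of all genes by 0.20 in this comparison, and the changes are given relative to the TMM scale.

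**Figure D1:**
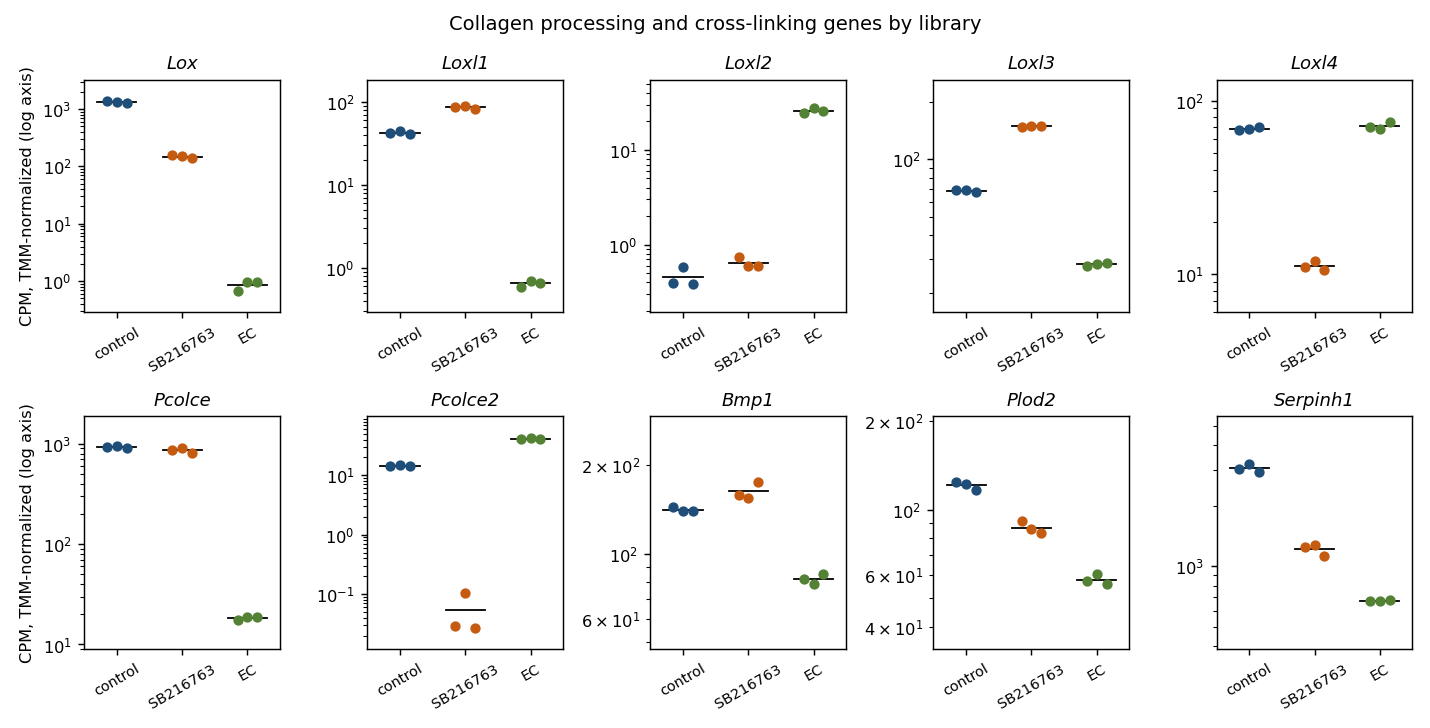
TMM-normalized CPM (log axis, its range set for each gene) of the 10 genes in every library; points are libraries of control osteoblasts, SB216763-treated osteoblasts, and ECs, and bars are group means (n = 3). Lox stepped down from 1312 to 148 to 0.871 CPM across the groups, whereas the treated libraries sat above both others for Loxl1, Loxl3, and Bmp1 and below both for Loxl4 and Pcolce2.

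Upstream sequences were printed for every member that had a matched promoter window. Of these, Loxl4, Pcolce2, and Serpinh1 fell with SB216763, and Pcolce did not pass the test. Pcolce and Pcolce2 share a function and responded unlike each other. RefSeq promoter windows, 250 bases before to 50 after the annotated start, were matched for 4 of the 10 members, on GRCm38.p6. The stretch given for each gene lies before the RefSeq start and holds no base of its own exons in GENCODE M21, is written 5′ to 3′ on the strand of the gene, and capitals mark the motifs searched. Loxl4 lies at chr19:42612814-42613056 on the minus strand, Pcolce at chr5:137611488-137611654 on the minus strand, Pcolce2 at chr9:95637378-95637600 on the plus strand, and Serpinh1 at chr7:99353240-99353489 on the minus strand. The stretch of Pcolce falls inside the gene as GENCODE M21 draws it, chr5:137605103-137613784, since that annotation holds longer transcripts that start farther upstream.
Loxl4: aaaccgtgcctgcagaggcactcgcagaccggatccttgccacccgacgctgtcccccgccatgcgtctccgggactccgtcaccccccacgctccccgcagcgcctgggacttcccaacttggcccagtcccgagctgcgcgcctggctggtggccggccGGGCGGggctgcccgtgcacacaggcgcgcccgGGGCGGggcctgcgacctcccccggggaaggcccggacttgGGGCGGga
Pcolce: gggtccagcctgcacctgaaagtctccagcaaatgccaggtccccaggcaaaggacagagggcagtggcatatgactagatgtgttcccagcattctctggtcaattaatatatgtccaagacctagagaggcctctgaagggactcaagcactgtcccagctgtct
Pcolce2: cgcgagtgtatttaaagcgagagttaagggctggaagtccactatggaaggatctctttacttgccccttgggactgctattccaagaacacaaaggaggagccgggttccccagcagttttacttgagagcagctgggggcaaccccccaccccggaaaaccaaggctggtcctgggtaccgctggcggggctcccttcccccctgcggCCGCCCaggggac
Serpinh1: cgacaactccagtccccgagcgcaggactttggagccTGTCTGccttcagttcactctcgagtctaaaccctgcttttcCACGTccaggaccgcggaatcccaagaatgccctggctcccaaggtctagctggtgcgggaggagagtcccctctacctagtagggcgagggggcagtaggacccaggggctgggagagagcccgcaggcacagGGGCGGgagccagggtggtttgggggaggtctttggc

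A set of 6 short motifs, with no overlap among their hits, were searched on both strands: the TATA box (TATAAA), the GC box (GGGCGG), the CCAAT box (CCAAT), a TCF/LEF site (CTTTGAT), the hypoxia-inducible factor core (ACGTG), and a SMAD site (CAGACA). The window of Loxl4 held the GC box 3 times, with first bases at -89, -56, and -15 from the start site. The window of Pcolce2 held it at -40 and again at 19, the latter past the stretch given, and that of Pcolce at -60, also past the stretch given. The window of Serpinh1 held the GC box at -37, the hypoxia-inducible factor core at -171, and the SMAD site at -213. The GC box occurred in 35.7% of all 32851 windows, the hypoxia-inducible factor core in 19.6%, and the SMAD site in 21.04%. The TATA box (13.6% of windows), the CCAAT box (37.4%), and the TCF/LEF site (3.73%) were matched in none of the 4 windows. These are matches of letters and do not show binding. GC content of the stretches was 75.7% for Loxl4, 63.6% for Serpinh1, 60.1% for Pcolce2, and 52.7% for Pcolce.

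Among the lysyl oxidases, Lox, the founding member of the family and the main cross-linking enzyme of osteoblast collagen, was high in control cells and fell with SB216763. Lox stood at 1379, 1309, and 1249 CPM in the control libraries, at 156, 149, and 140 CPM in the treated libraries, and at 0.664, 0.975, and 0.973 CPM in the ECs. The order was control, treated, ECs, with no overlap between any of the groups. The log2 fold change with SB216763 was -3.15 (SE 0.07, adjusted p = 8.04e-16, edgeR's quasi-likelihood test), an 8.85-fold drop. Treated cells nonetheless held 170-fold more Lox than ECs.

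Loxl1, a lysyl oxidase best known for elastin fibers, and Loxl3, a family member with scavenger receptor domains, went the other way. Loxl1 measured 42.7, 44.1, and 40.5 CPM in control, 86.3, 90.03, and 81.2 CPM in treated, and 0.596, 0.700, and 0.649 CPM in EC libraries. Its log2 fold change with SB216763 was 1.01 (SE 0.05, adjusted p = 2.11e-11, edgeR), a 2.02-fold rise. Loxl3 measured 68.7, 69.1, and 67.1 CPM in control, 147.7, 149.6, and 149.5 CPM in treated, and 27.5, 28.4, and 28.7 CPM in EC libraries, a 2.18-fold rise with SB216763 (log2 fold change 1.12, SE 0.04, adjusted p = 5.23e-13, edgeR). For both genes the treated libraries were highest and the ECs lowest. Loxl3 overlaps Htra2 on the opposite strand, which moved from 40.8 to 24.5 CPM with SB216763 and stood at 50.1 CPM in ECs. Without a stated strand setting, reads of the 2 genes cannot be told apart where they overlap.

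Loxl4 and Loxl2, the other family members with scavenger receptor domains, had patterns of their own. Loxl4 measured 68.0, 68.2, and 70.1 CPM in control and 70.4, 68.8, and 74.7 CPM in EC libraries, and the 2 groups overlapped. In treated libraries Loxl4 measured 10.98, 11.8, and 10.6 CPM, below every library of both other groups, and its log2 fold change with SB216763 was -2.62 (SE 0.05, adjusted p = 6.70e-16, edgeR), a 6.18-fold drop. Loxl2, an oxidase of basement membrane collagen, was an EC gene here, with 24.6, 27.7, and 25.5 CPM. It measured 0.394, 0.583, and 0.382 CPM in control and 0.745, 0.600, and 0.599 CPM in treated libraries, each resting on 11 to 32 reads. Its log2 fold change with SB216763 was 0.48 (SE 0.23) and did not pass the test (adjusted p = 0.0677, edgeR), although the libraries did not overlap.

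Set per kilobase of exon, so that genes can be compared with each other, the makeup of the LOX family differed between the 3 groups. The summed level of the 5 genes was 319 ± 13.8 CPM per kb (SD, n = 3) in control, 92.2 ± 2.71 in treated, and 28.2 ± 0.780 in EC libraries. Lox made up 86.2% ± 0.536 of that sum in control cells, and Loxl4, Loxl3, and Loxl1 made up 5.13% ± 0.303, 4.66% ± 0.152, and 4.04% ± 0.157. In treated cells Loxl3 took 35.1% ± 1.17, Lox 33.7% ± 1.02, and Loxl1 28.2% ± 0.762, with Loxl4 at 2.86% ± 0.112 and Loxl2 at 0.130% ± 0.0153. The shares of Loxl3 and Lox overlapped between treated libraries, so their order could not be set with these lengths, whereas Loxl1 lay below both. In ECs Loxl4 took 60.0% ± 1.49, Loxl3 21.7% ± 0.299, and Loxl2 17.0% ± 1.09, and Loxl1 and Lox together stayed under 2%. Each share also depends on the other 4 genes, and the shares are a description with no test.

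**Figure D2:**
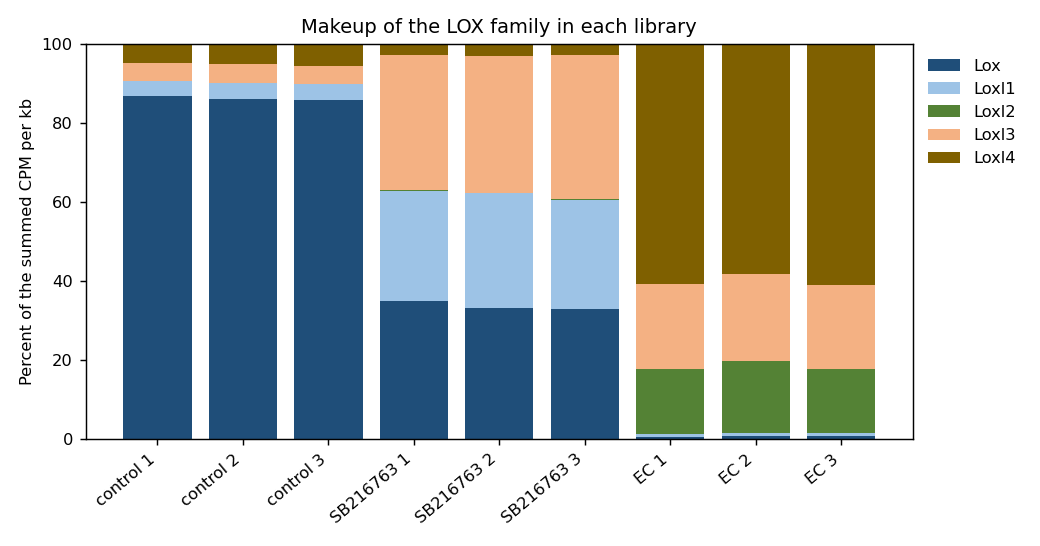
Share of each LOX family gene in the summed CPM per kb of exon of the 5 genes (percent), 1 bar per library. Lox filled 85.7% to 86.8% of each control bar and 33.0% to 34.8% of each treated bar, and Loxl4 filled 58.3% to 61.0% of each EC bar.

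Ranked per kilobase of exon among 15504 genes, Lox was at 154 in control cells, at 1577 in treated cells, and at 13409 in ECs. Loxl1 and Loxl3 moved from 3967 and 3523 in control to 1929 and 1509 in treated cells. Loxl4 was at 3242 in control, 8812 in treated cells, and 3106 in ECs. In treated cells Loxl3 (32.4 ± 0.233 CPM per kb) and Lox (31.05 ± 1.63) were at neighboring levels whose libraries overlapped.

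Of the enzymes that trim the C-propeptide, Bmp1, the procollagen C-proteinase that also activates pro-lysyl oxidase, was a little higher after SB216763. Bmp1 measured 143.5, 139.4, and 139.2 CPM in control, 158.5, 154.1, and 175.5 CPM in treated, and 82.1, 78.9, and 85.2 CPM in EC libraries. The log2 fold change was 0.21 (SE 0.05, adjusted p = 0.00171, edgeR), a 1.16-fold rise. With scaling by library size alone it was 0.41 (adjusted p = 4.40e-06, edgeR). With only the 2 osteoblast groups in the fit it was 0.19 and no longer passed (adjusted p = 0.0121, edgeR).

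The 2 enhancers of that proteinase responded unequally. Pcolce, the enhancer abundant in bone matrix, measured 940.1, 960.8, and 917.9 CPM in control, 860.9, 905.7, and 814.4 CPM in treated, and 17.5, 18.6, and 18.9 CPM in EC libraries. Its log2 fold change with SB216763 was -0.13 (SE 0.05), which did not pass (adjusted p = 0.0376, edgeR), and its sign turned to 0.08 with scaling by library size alone (adjusted p = 0.147). Pcolce2, its homolog, had 916, 817, and 414 reads in the control libraries, 1, 4, and 1 reads in the treated libraries, and 1775, 1392, and 1755 reads in the EC libraries. On the CPM scale that was 14.4, 14.9, and 14.4 in control and 40.7, 42.4, and 40.7 in EC libraries. The treated libraries stood at 0.0287, 0.104, and 0.0272 CPM, with replicates 1 and 3 below the level of 3 counts. Pooled over libraries, Pcolce2 was 267-fold lower in treated than in control cells, with an exact 95% interval of 123- to 729-fold that covers counting error only. The fitted log2 fold change was -7.98 (SE 0.16, adjusted p = 6.48e-16, edgeR), a value that depends on the prior count, and it was -8.89 without treated replicate 2, which held 4 of the 6 reads.

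Per kilobase of exon, Pcolce made up 98.7% ± 0.0128 (SD, n = 3) of the sum of both enhancers in control cells and 99.995% ± 0.00390 in treated cells. In ECs the balance was turned over, with Pcolce at 35.0% ± 0.923 and Pcolce2 at 65.0% ± 0.923. The sum itself was far lower in ECs, where Pcolce stood at 4.80 ± 0.191 and Pcolce2 at 8.92 ± 0.217 CPM per kb, against 246 ± 5.62 and 3.15 ± 0.0590 CPM per kb in control cells. Pcolce ranked at 177 of the 15504 genes in control and at 144 in treated cells per kilobase. These shares depend on the gene length used. The exon union of Pcolce is 3823 bases and its longest transcript 2573, against 4625 and 4438 for Pcolce2. The shares of the 2 enhancers were not taken with the longest transcripts.

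Inside the cell, Serpinh1, the collagen-specific chaperone of the endoplasmic reticulum, and Plod2, the hydroxylase of telopeptide lysines, both fell. Serpinh1 measured 3051, 3209, and 2935 CPM in control, 1248, 1276, and 1122 CPM in treated, and 674.6, 668.7, and 679.6 CPM in EC libraries, an order with no overlap. Its log2 fold change with SB216763 was -1.33 (SE 0.06, adjusted p = 8.62e-12, edgeR), a 2.52-fold drop. Per kilobase it was the most abundant member in all 3 groups, at 1255 ± 56.3, 497 ± 33.5, and 276 ± 2.24 CPM per kb (SD, n = 3), which put it at ranks 22, 45, and 110. Plod2 measured 124, 122, and 117 CPM in control, 91.2, 85.8, and 83.03 CPM in treated, and 57.3, 60.3, and 55.9 CPM in EC libraries. The drop was 1.40-fold (log2 fold change -0.48, SE 0.05, adjusted p = 1.74e-07, edgeR), smaller than those of Lox and Serpinh1. Gm38391, a transcript model on the opposite strand that overlaps Plod2, stood at 2.73 CPM or less.

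**Figure D3:**
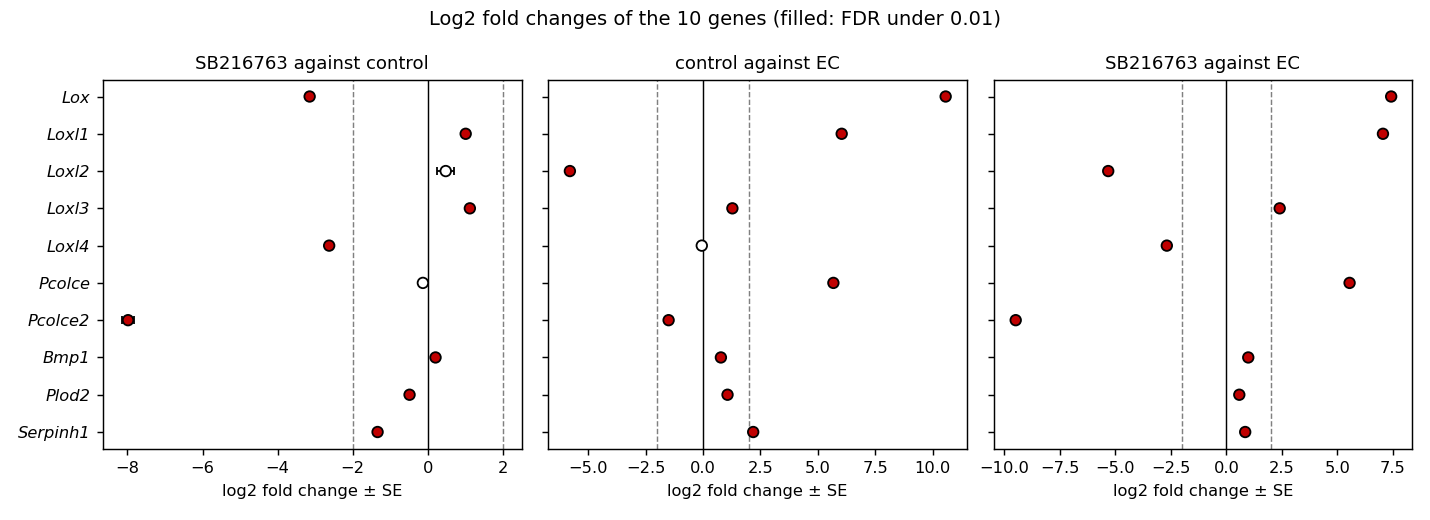
Log2 fold change ± SE (horizontal axis) of the 10 genes in the 3 comparisons; filled points passed an FDR of 0.01, and dashed lines mark a log2 fold change of 2 in either direction. With SB216763 the points ran from -7.98 for Pcolce2 to 1.12 for Loxl3, and between control osteoblasts and ECs from -5.80 for Loxl2 to 10.57 for Lox.

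The comparison of control osteoblasts with ECs asked how far the route differs between the starting cell and the cell type that the treatment was meant to approach. The osteoblasts were a cultured line and the ECs were isolated from mice by FACS. Cell type and source therefore cannot be told apart in any comparison with ECs. Control osteoblasts were higher in Lox, Loxl1, Loxl3, Pcolce, Serpinh1, Plod2, and Bmp1, and ECs were higher in Loxl2 and Pcolce2. At an FDR under 0.01, 7 of the 10 members were higher in control osteoblasts, against 37.9% of all genes, and 2 were lower, against 39% of all genes. With the fold threshold, 4 were higher, against 9.87% of all genes, and 1 was lower, against 13.5%. The median log2 difference of the members was 1.17 beside -0.01 over all genes, and the groups did not overlap for 9 of the 10 members, as for 84% of all genes. Lox differed most, by 10.57 on the log2 scale (SE 0.10, adjusted p = 3.75e-20, edgeR). Loxl1 and Pcolce followed with log2 differences of 6.04 and 5.68, Serpinh1 with 2.18, and Loxl3, Plod2, and Bmp1 with 1.28, 1.07, and 0.78. Loxl2 was 57.3-fold higher in ECs and Pcolce2 was 2.83-fold higher in ECs. Loxl4 differed by -0.05 (SE 0.05) and did not pass (adjusted p = 0.282, edgeR), but it passed at -0.18 with scaling by library size alone (adjusted p = 0.00135). That scaling moved the median of all genes by -0.13 here.

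Treated osteoblasts were compared with ECs in the same fit, and this comparison shares its libraries with both of the others. At an FDR under 0.01, 7 members were higher in treated osteoblasts, against 38.3% of all genes, and 3 were lower, against 40.3%. With the fold threshold, 4 were higher, against 10.3% of all genes, and 3 were lower, against 15%. The median was 0.92 beside -0.02 over all genes, and the groups did not overlap for any of the 10 members, as for 85.4% of all genes. The log2 difference was 7.42 for Lox (10.57 for control cells against ECs), 7.05 for Loxl1 (6.04), 2.40 for Loxl3 (1.28), and 5.55 for Pcolce (5.68). It was 0.85 for Serpinh1 (2.18), 0.58 for Plod2 (1.07), and 0.99 for Bmp1 (0.78). On the EC side it was -5.32 for Loxl2 (-5.80), -2.68 for Loxl4 (-0.05), and -9.48 for Pcolce2 (-1.50). The Pcolce2 value rests on the 6 treated reads and depends on the prior count, and it was -10.38 without treated replicate 2. Pooled over libraries, Pcolce2 was 754-fold lower in treated cells than in ECs, with an exact 95% interval of 346- to 2055-fold for counting error only. The treated cells were thus nearer to the EC level than control cells for Lox, Serpinh1, and Plod2. Loxl2 and Pcolce were also nearer by value, but neither passed the test of SB216763 against control. Treated cells were farther from the EC level for Loxl1, Loxl3, Loxl4, Pcolce2, and Bmp1. For Bmp1 the change with SB216763 was small and did not pass with only the 2 osteoblast groups in the fit.

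The fibrillar collagens on which these enzymes act fell with SB216763. Col1a1 and Col1a2, the chains of type I collagen, had log2 fold changes of -3.17 (SE 0.14) and -2.39 (SE 0.13), and Col3a1 -3.29 (SE 0.09). Col5a2 and Col5a1, which nucleate fibrils, had -2.52 (SE 0.06) and -1.78 (SE 0.09), and all 5 passed in edgeR's test, with adjusted p-values between 2.62e-15 and 9.19e-11. Eln, the elastin gene, stood at 0.124 ± 0.0294 CPM in control and 0.0442 ± 0.0401 in treated cells and did not pass (adjusted p = 0.0356, edgeR), whereas ECs held 23.1 ± 0.705 CPM.

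Ratios of raw counts within a library need no scaling between libraries, and 5 of them were compared between control and treated cells. Per 1000 reads of Col1a1 and Col1a2, the control libraries held 23.5, 30.2, and 22.7 reads of Lox, the treated libraries 19.7, 18.5, and 17.1, and the ECs 20.7, 19.1, and 23.2. Lox per type I collagen read thus stayed between 17.1 and 30.2 per 1000 in all 9 libraries, while Lox itself ranged from 0.664 to 1379 CPM. The EC values rest on 29, 32, and 42 reads of Lox, and whether those reads came from the ECs themselves was not tested. The log2 ratio was 0.46 lower in treated than in control libraries, a difference of -0.46 with no overlap. Control replicate 2, with 30.2, had the lowest Col1a1 of its group. Serpinh1 ran from 52.0 to 74.1 reads per 1000 of type I collagen in control, from 137 to 158 in treated, and from 13094 to 21022 in EC libraries, so the chaperone fell less than its main client (log2 difference 1.35). Lox to Loxl1 had a log2 difference of -4.16 between treated and control libraries, Pcolce2 to Pcolce of -7.82, and Plod2 to Plod1, the partner that hydroxylates helical lysines, of -0.88. The control and treated libraries overlapped in none of the 5 ratios. Each 2-sided exact permutation test gave p = 0.1 (0.1 after Benjamini-Hochberg adjustment over the 5 ratios), which is the smallest that 3 against 3 libraries allow.

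**Figure D4:**
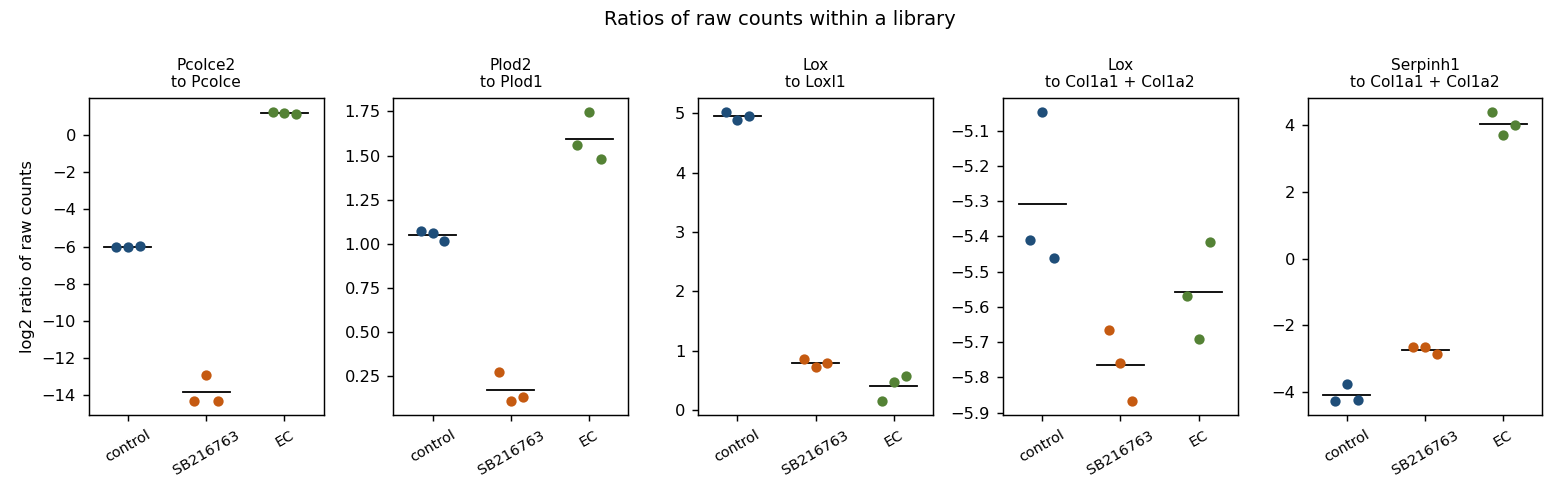
Log2 ratio of raw counts within each library for 5 gene pairs, with points for libraries and bars for group means (n = 3); each panel has its own axis range. Lox to type I collagen stayed between -5.87 and -5.05 in all 9 libraries, whereas Serpinh1 to type I collagen had means of -4.08 in control cells, -2.73 in treated cells, and 4.04 in ECs. The EC points that use Lox rest on 29 to 42 reads of that gene.

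A list of 27 other genes of collagen modification, propeptide removal, and export was read beside the members, and 24 of them passed the filter on low counts (Colgalt2, Tll2, and Adamts3 did not). With SB216763, 13 of the 24 were lower at an FDR under 0.01, against 32% of all genes, and 9 were higher, against 32.9%. With the fold threshold as well, 1 was lower, against 5.84% of all genes, and 2 were higher, against 3.81%, and counts this small cannot be set apart from those shares. The median log2 fold change was -0.24 beside 0.01 over all genes. Colgalt1, a collagen galactosyltransferase, and Mia3, a collagen export receptor, did not pass, at 0.02 and -0.11. The list was chosen with results of these data known.

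Among the 10 genes grouped for proline modification, partners included, 6 were lower and 4 were higher, beside the 32% and 32.9% of all genes. The count includes P4hb, P3h3, and P3h4, with log2 fold changes of -0.26, 0.48, and -0.21. P4ha2 and P4ha3, catalytic subunits of prolyl 4-hydroxylase, had log2 fold changes of -1.44 and -0.86, while P4ha1, the major subunit, was at 0.36 and rose from 343 ± 9.64 to 440.5 ± 13.4 CPM. P3h1 and Crtap, partners in the prolyl 3-hydroxylase complex, fell by 1.07 and 0.39 on the log2 scale. Ppib, a cyclophilin of the same complex, rose by 0.19. P3h2, the 3-hydroxylase of basement membrane collagens, rose from 1.15 ± 0.118 to 6.01 ± 0.514 CPM (log2 fold change 2.42, SE 0.11, adjusted p = 6.76e-12, edgeR), and ECs held 24.3 ± 0.417 CPM.

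Of the 4 lysine modifiers tested, 2 were lower and 1 was higher, beside the same 32% and 32.9% of all genes, a set too small to be read against them. Fkbp10, a folding partner needed for telopeptide lysine hydroxylation, fell by 1.14 on the log2 scale, from 541 ± 12.1 to 246 ± 8.72 CPM, and Plod3 fell by 0.58. Plod1 rose by 0.40, so of the 3 lysyl hydroxylases 1 rose and 2, Plod2 and Plod3, fell. Of the 6 export genes, 4 fell and 1 rose, also a small set beside the 32% and 32.9% of all genes. Creb3l1, a transcription factor of the secretory route in osteoblasts, fell by 1.50, and the COPII coat genes Sec23a and Sec24d had log2 fold changes of -1.16 and -0.90. Klhl12, an adaptor that enlarges COPII carriers, rose by 0.38.

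Of the 4 other propeptide proteases tested, 3 were higher and 1 was lower, beside 32.9% and 32% of all genes. So small a set cannot be read against those shares. Its genes held the lowest and the highest log2 fold change of the 24 genes. Adamts2, the main procollagen N-proteinase, rose from 133 ± 4.97 to 448 ± 11.9 CPM (log2 fold change 1.76, SE 0.05), and Adamts14, its homolog, from 8.30 ± 0.877 to 64.8 ± 3.83 CPM (log2 fold change 2.97, SE 0.08). Both stayed under 0.5 CPM in every EC library, so treated cells were farther from ECs than control cells were. Tll1, a Bmp1 homolog, went from 1.64 ± 0.163 CPM in control to 3, 1, and 2 reads in the treated libraries, while ECs held 34.8 ± 0.791 CPM. The pooled ratio of control to treated was 30.01 for Tll1, with an exact 95% interval of 13.6 to 82.6 for counting error only. Pcolce2 and Tll1 therefore shared a shape, with 4 reads or fewer in every treated library in genes that were highest in ECs. Furin, the convertase that activates several of these proteases, rose by 0.41.

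**Figure D5:**
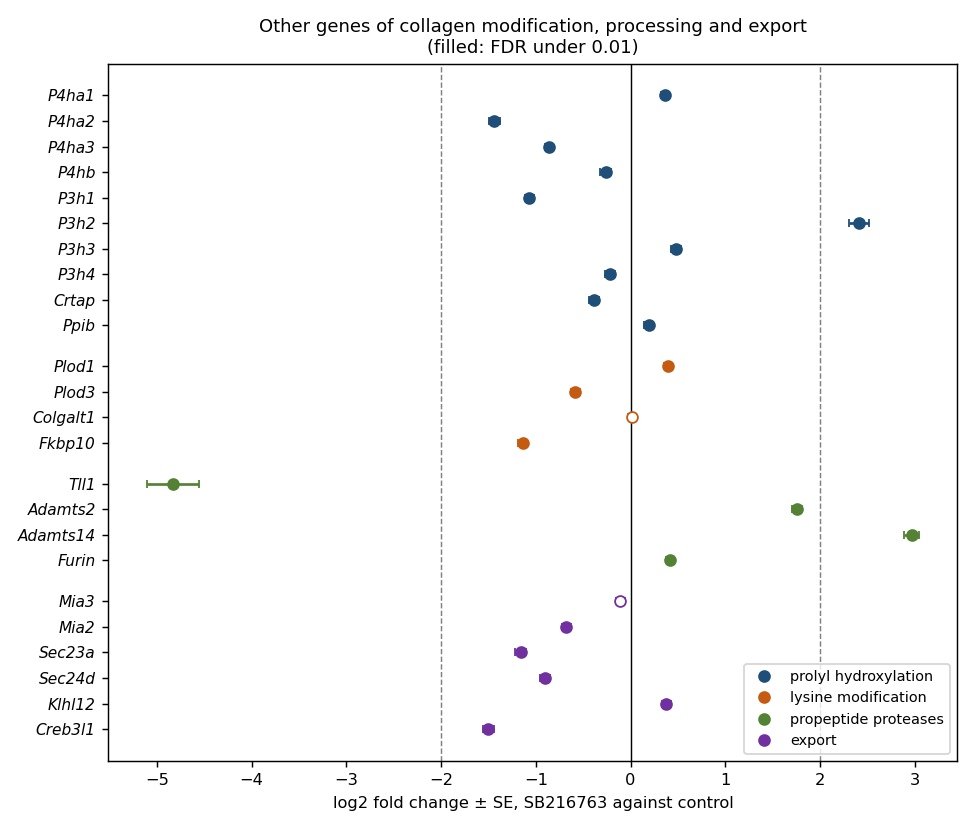
Log2 fold change ± SE with SB216763 (horizontal axis) of the 24 other genes tested, colored by step; filled points passed an FDR of 0.01, and dashed lines mark a log2 fold change of 2 in either direction. The propeptide proteases spread widest, from -4.83 for Tll1 to 2.97 for Adamts14. Of the 6 export genes, 4 lay below 0 and passed, a small set beside the 32% of all genes.

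The genes whose levels most resembled each member were sought among 9951 genes by the root mean square (RMS) difference of log2 CPM, centered on the mean, over the 9 libraries. For Lox, the nearest gene was Col1a1 (RMS difference 0.20), with 24511 ± 4467 CPM in control, 2732 ± 80.1 in treated, and 20.6 ± 4.49 in EC libraries, and the next was Fgfr2, a fibroblast growth factor receptor (0.22). For Serpinh1, the nearest were Rps20, a ribosomal protein (0.09), and Fkbp10 (0.09), a gene of the list above. Loxl1 lay nearest to the secreted serine protease Htra1 (0.17) and to Retreg1 (0.18), and Loxl3 to the fatty acid elongase Elovl6 (0.05) and to Slc26a11 (0.07). Loxl4 lay nearest to Pxdc1 (0.06) and to Plk4, the kinase of centriole duplication (0.08). Plk4 measured 49.4 ± 1.27, 7.72 ± 0.415, and 50.2 ± 0.750 CPM in the 3 groups. Loxl2 lay nearest to the Wnt receptor Fzd4 and to Fblim1 (both 0.24), and Pcolce to the stromal receptor Cd248 (0.13) and to C1qtnf12 (0.14). Bmp1 lay nearest to Fkbp15 (0.05) and Baiap2 (0.06), and Plod2 to Meis2 (0.03) and Tab2 (0.05). For Pcolce2 no gene was as near: Tspan18 differed by 0.65 and the proprotein convertase Pcsk6 by 0.69. Pcsk6 measured 56.2 ± 2.04 CPM in control, 0.397 ± 0.132 in treated, and 64.2 ± 2.01 in EC libraries. The 9 libraries form 3 groups, so likeness here rests largely on 3 levels.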

How the data were processed

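Gene counts of 9 libraries were deposited as whole numbers without normalization. The authors aligned and counted the reads with STAR, version 2.5.3a on GRCm38 per the submitters' processing notes, and pooled no replicates. Annotation and strand setting are not given in the sources used here. The labels carry the SB216763 protocol on every sample, so groups were taken from titles and treatment entries. The members, gene lists, and marker lists were chosen with earlier results of these data known.

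Counts were fitted in R 4.3.3 with edgeR 4.0.16 (filterByExpr, TMM, quasi-likelihood over all 9 libraries, group only), with Benjamini-Hochberg adjustment over 15531 genes. Calls required an FDR under 0.01, and for the fold threshold a log2 fold change of 2 or more in either direction. Fold changes used a prior count of 0.125, and standard errors come from the F statistic. Coordinates and exon lengths are those of GENCODE M21, matched for 50462 of 50686 identifiers. Ratios had 0.5 added to each count. The named genes are the members, both collagen lists, the markers, and the 2 genes most like each member, with at least 10 CPM in 1 group mean and no clone or prediction name. No 2 libraries agreed within sampling noise. The deviations of same-numbered libraries did not correlate above 0.1 in every pair, so no block was used. Alternatives were DESeq2 1.42.0, limma-voom (limma 3.58.1), library-size scaling, no filter, 2-group fits, other thresholds, a replicate block, each library left out, and longest-transcript lengths. The fits were tested on simulated counts. Intervals and floors cover counting error only.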

Additional observations from a re-analysis of the deposited data

How the results depend on the processing

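Across 450 alternative values of the members' log2 fold changes, 447 kept their direction and their side of the threshold. The exceptions were Pcolce with SB216763, which turned to 0.08 with scaling by library size alone, Loxl4 between control cells and ECs, which passed at -0.18 under the same scaling, and Bmp1 with SB216763, at 0.19 and not passed with 2 groups in the fit. With a fold threshold of 1 on the log2 scale, 2 members were called higher with SB216763 in place of 0, 2 were lower in control cells than in ECs in place of 1, and 6 of the other genes were lower with SB216763 in place of 1. A lower threshold can only add calls. Among all 15531 genes, those lower with SB216763 went from 907 to 2015 and those higher from 592 to 1726. The matching count of all genes was not taken for control cells against ECs. With the longest transcript as gene length, Lox took 85.2% of the LOX family in control cells and Loxl3 took 37.6% in treated cells. Both moved by more than their SD between libraries. Lox then took 32.3% in treated cells, so the gap between Loxl3 and Lox there depends on the length used. All 35 alternatives of the ratios kept their direction. The replicate number as a block left 5 members lower and 3 higher with SB216763 and changed no call in 46 results. Same-numbered libraries correlated between -0.04 and 0.12 in their deviations, and 2 of 3 control libraries correlated best with their own number among treated ones, a hint from the data only. With each library left out, the log2 fold change of Pcolce2 ran from -8.89 to -7.68. Depth limits the treated level of Pcolce2 and Tll1.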
